A study of Mus musculus with 5 samples.

Results

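The 10 genes described here encode proteins that build, cross-link or tune the extracellular matrix: fibronectin (Fn1), the cross-linking enzyme lysyl oxidase (Lox), the matricellular proteins periostin (Postn), tenascin C (Tnc), thrombospondins 1 and 2 (Thbs1, Thbs2), Sparc and the secreted glycoprotein Cthrc1, and the small leucine-rich proteoglycans decorin (Dcn) and lumican (Lum). They were chosen by gene symbol in the platform annotation. All 10 had a named probe, 13 probes in all, among 19084 genes measured by 21876 named probes. Transcript levels were read on 5 single-colour arrays of mouse cells. The MEF group is 1 array of fibroblasts from embryos of 13.5 days post coitum, freed of head and viscera, given a mock vector. The second group, iLC, comprises 2 arrays and holds, by its labels, such fibroblasts transduced by lentivirus over 12 hours with Dmrt1, Gata4 and Nr5a1, which are transcription factors of the gonads; the submitters call them induced Leydig-like cells. Per the labels' protocols, infected fibroblasts were moved to a medium supplied with IGF (50 ng/ml) plus PDGFAA (10 ng/ml); the same text stands beside every sample, so it does not tell whether MEF were moved too or for how long the cells grew. The Leydig group is 2 arrays of cells taken from testes of mice aged 56 days, with no vector and no culture step named in their labels. No strain is named, and no label ties the arrays of a pair to separate dishes or mice, so p-values here reflect just the spread among these arrays, which may be technical.

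Matricellular proteins are secreted into the matrix but act on cells more than they bear load: they bind integrins, growth factors and collagen, and they are abundant in embryos, healing wounds and fibrosis. Fibronectin is laid down as fibrils by cells that pull on it through integrins, and lysyl oxidase oxidises lysines of collagen and elastin so that fibres become cross-linked. Decorin and lumican coat collagen fibrils and limit their width. Fibroblasts make most of these proteins in culture, whereas Leydig cells are steroid-producing cells that lie in the loose tissue between the seminiferous tubules.

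From the promoter table of RefSeq (GRCm38.p6), 6 windows for 4 of the 10 genes were used, Postn, Tnc, Thbs2 and Sparc. Member windows on a chromosome left out of this search were not counted, so the table may hold windows of other members. A window for each is printed, since Postn, Tnc and Thbs2 read far lower on the Leydig arrays while Sparc read alike on all 5 arrays. Each is the 250 bases before a transcript start, read 5′ to 3′ on the gene's strand, with TATATAA in capitals where present.
Postn (chr3:54360857-54361106, + strand): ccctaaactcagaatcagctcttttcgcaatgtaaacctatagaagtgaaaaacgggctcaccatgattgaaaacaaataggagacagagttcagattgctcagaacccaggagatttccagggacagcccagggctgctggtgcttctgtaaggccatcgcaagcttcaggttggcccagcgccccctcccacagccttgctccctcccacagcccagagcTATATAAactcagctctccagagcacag
Tnc (chr4:64046937-64047186, - strand): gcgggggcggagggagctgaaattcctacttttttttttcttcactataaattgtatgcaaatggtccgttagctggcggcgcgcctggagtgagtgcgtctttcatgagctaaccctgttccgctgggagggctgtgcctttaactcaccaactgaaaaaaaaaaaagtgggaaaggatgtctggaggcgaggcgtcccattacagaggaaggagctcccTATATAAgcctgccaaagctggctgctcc
Thbs2 (chr17:14694263-14694512, - strand): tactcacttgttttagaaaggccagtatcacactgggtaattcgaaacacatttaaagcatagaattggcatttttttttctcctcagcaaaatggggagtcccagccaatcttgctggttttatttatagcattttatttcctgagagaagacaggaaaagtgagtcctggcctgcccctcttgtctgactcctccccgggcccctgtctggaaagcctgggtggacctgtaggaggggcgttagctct
Sparc (chr11:55420081-55420330, - strand): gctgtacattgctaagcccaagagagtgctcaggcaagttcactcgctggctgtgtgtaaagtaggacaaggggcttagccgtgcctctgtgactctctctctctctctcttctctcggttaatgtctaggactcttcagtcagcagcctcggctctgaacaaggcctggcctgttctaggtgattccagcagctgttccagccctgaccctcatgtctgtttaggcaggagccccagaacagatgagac
The TATATAA run lay at -28 to -22 from the start in the Postn window and at -29 to -23 in the Tnc window; it was searched for after the sequences were seen and occurs on either strand in 3.04% of 32817 windows of this length. The other Postn and Tnc windows and those of Thbs2 and Sparc lacked it. None of the 6 windows held, on either strand, the NR5A1 letters TCAAGGTCA (0.387% of all windows) or the shorter AAGGTCA contained in them (4.08%), the GATA letters AGATAA (9.99%), the AP-1 letters TGANTCA (6.75%) or the TEAD letters GGAATG (12.6%). A loose SRF pattern (CC and GG with any 6 bases between) was found in 3 of the 6 windows and in 67.1% of all windows. These matches describe the letters and no binding was measured.

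None of the 3 delivered factors was called as different between MEF and the arrays labelled iLC. Nr5a1 read 1265 in MEF, 1509 and 1158 in the iLC pair and 68030 and 44721 in the Leydig pair (iLC to MEF difference 0.06 ± 0.44, log2, SE, limma adjusted p = 0.964). Gata4 read 6773, then 4127 and 3150, then 71888 and 50891 (-0.91 ± 0.43, adjusted p = 0.368), and Dmrt1 396.6, then 333.2 and 427.2, then 548.8 and 518.7 (-0.07 ± 0.38, adjusted p = 0.954). Each has 1 named probe, and whether that probe lies in the delivered sequence is not known here. Below, iLC means the arrays labelled so, in every comparison and direction given.

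The arrays had close median intensities, 1111 to 1230 over all 26423 probes. Pearson's r over the log2 values of all genes, a description since genes are no replicates, was 0.978 for the iLC pair and 0.961 for the Leydig pair. Of 9 Leydig markers, 6 had a named probe, and their summed intensity was 7861 in MEF, 91270 and 113619 in the iLC pair and 329985 and 362023 in the Leydig pair; the iLC sums came mostly from Star (56878 and 73892) and Hsd3b1 (27160 and 34513), while Cyp17a1 read 2344 in MEF and 1382 and 2351 in the iLC pair, against 40614 and 197728 in the Leydig pair. Star, the cholesterol carrier of steroid synthesis, was at 695.0 in MEF and at 1368 and 19703 in the Leydig pair, below both iLC arrays. Insl3, Lhcgr and Hsd3b6 had no named probe, and Cyp11a1, a defining marker, read 562.1 in MEF, 603.4 and 907.1 in the iLC pair and 509.8 and 450.6 in the Leydig pair. The Cyp11a1 values lie below each array's median, so they say little about its transcript. Hsd17b3 read 2165 in MEF, 3738 and 798.7 in the iLC pair and 1124 and 3680 in the Leydig pair. The 6 germ cell markers summed to 22089 on Leydig replicate 1 and 303170 on Leydig replicate 2, against 7698 to 9575 on the other 3 arrays. Their part in the results below was not tested, and calls below that change without Leydig replicate 2 are named in the same paragraph or counted for the related genes. In such bulk samples, fewer cells of a type and less RNA per cell cannot be told apart.

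Between the arrays labelled iLC and Leydig, 7 of the 10 genes were higher in iLC and none was lower, by the linear model of limma with Benjamini-Hochberg adjustment over all genes (adjusted p under 0.05, the threshold for every call below). Of all genes, 11.4% were called, 5.74% as higher in iLC and 5.69% as lower. The median log2 difference was 6.24 for the 10 genes and -0.03 for all genes. The 7 genes were Fn1, Lox, Postn, Tnc, Cthrc1, Thbs1 and Thbs2, and each kept its call under all 17 other settings, including without any iLC or Leydig array; Sparc, Dcn and Lum did not pass. Against MEF, the same 7 genes were lower on the Leydig arrays, where 7.38% of all genes were called, 3.39% as higher and 3.99% as lower. Thbs2 lost that call without Leydig replicate 2 (log2 difference -4.22 there). Both comparisons use the same Leydig arrays. Between iLC and MEF none of the 10 passed. Every difference was taken after log2(value + 16), which shrinks those of dim probes, and folds derive from it.

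**Figure D1:**
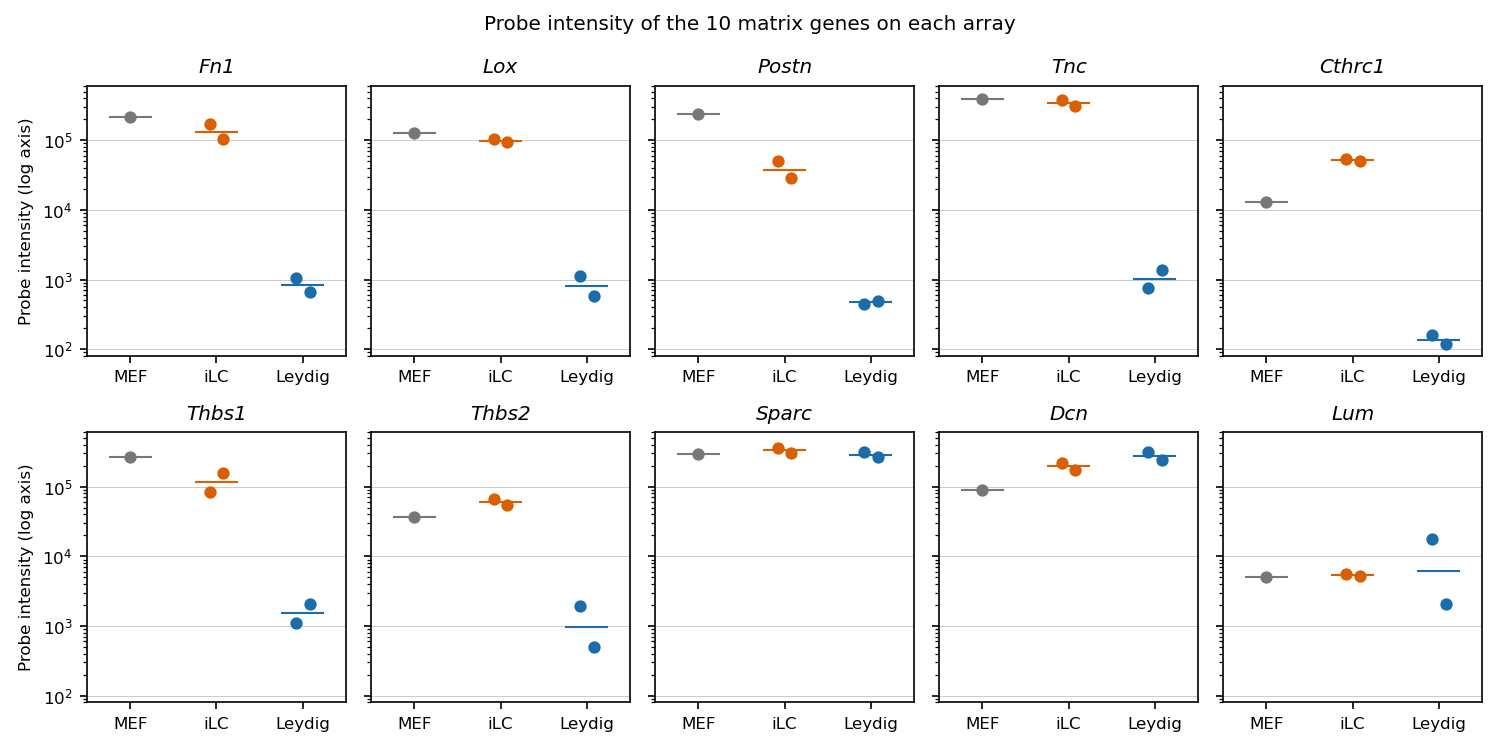
Probe intensity (log axis, arbitrary scanner units) of the 10 genes, by the probe used for each, on the MEF array, the 2 iLC arrays and the 2 Leydig arrays; each point is an array and each line the geometric mean of a group. For Fn1, Lox, Postn, Tnc, Cthrc1, Thbs1 and Thbs2 the MEF and iLC points lie far above both Leydig points, while Sparc stays between 263404 and 364712 on all 5 arrays.

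Fn1, the adhesive glycoprotein that fibroblasts assemble into fibrils, read 218059 in MEF, 169821 and 104543 in the iLC pair and 1039 and 672.6 in the Leydig pair. MEF and both iLC arrays were high and both Leydig arrays low, with no overlap. The iLC to Leydig fold was 156. Relative to MEF, Fn1 was lower on the Leydig arrays by a log2 difference of -8.00 ± 0.49 (SE, adjusted p = 0.00163). The iLC to MEF difference was -0.71 ± 0.49 (95% interval -1.90 to 0.47, adjusted p = 0.547).

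Lox, the copper enzyme that cross-links collagen and elastin, had 2 probes. The brighter read 125312 in MEF, 104922 and 93231 in the iLC pair and 1117 and 588.5 in the Leydig pair. The other read 18368 in MEF, 47421 and 34162 in the iLC pair and 198.0 and 120.2 in the Leydig pair. Both probes were high on MEF and iLC arrays and low on Leydig arrays, but they ordered MEF and iLC oppositely. For iLC against MEF the brighter probe had a log2 difference of -0.34 ± 0.49 (SE) and the other 1.13 ± 0.46, and neither passed (adjusted p = 0.79, and 0.307 over all probes). Between iLC and Leydig they had differences of 6.90 and 7.88 (adjusted p = 0.00101, and 0.000937 over all probes), so only the direction of Lox between iLC and MEF turned on the probe. On the Leydig arrays the other probe was among the dimmest 18.6% and 11.5% of probes. The size of its 7.88 may thus depend on the arrays' low ends.

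**Figure D2:**
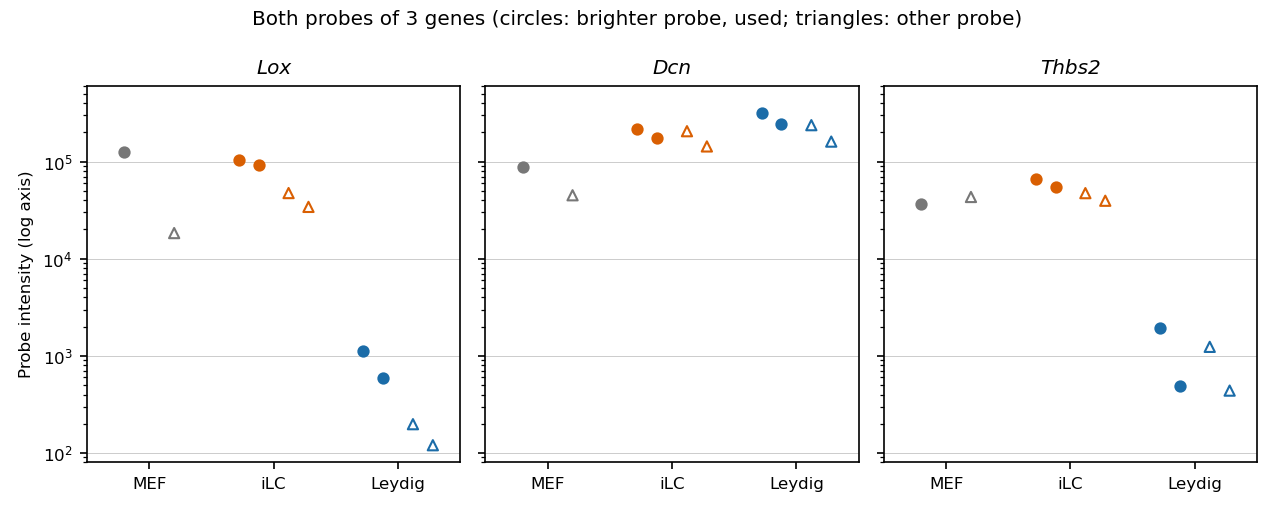
Intensity (log axis, arbitrary scanner units) of both probes of Lox, Dcn and Thbs2 on the MEF, iLC and Leydig arrays, with the brighter probe as filled circles and the other as open triangles. The MEF point lies above the iLC points for the brighter Lox probe and below them for the other, while the Leydig arrays are lowest for both probes of Lox and Thbs2 and highest for the brighter probe of Dcn.

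Postn, a fasciclin-domain protein of periosteum and of injured or developing connective tissue, had the largest log2 difference of the 10 genes between iLC and MEF. It read 239164 in MEF, 50186 and 28536 in the iLC pair and 452.4 and 499.4 in the Leydig pair. The 3 groups were in order with no overlap, MEF above iLC above Leydig. Its iLC to MEF log2 difference was -2.66 ± 0.46 (SE), 6.32-fold lower in iLC, which did not pass (adjusted p = 0.0758). It passed when each array was centred on its median (adjusted p = 0.0337) and under 3 other settings. Between iLC and Leydig it was 6.27 ± 0.38 (adjusted p = 0.00105), and between Leydig and MEF -8.93 ± 0.46 (adjusted p = 0.00137).

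Tnc, a large multi-armed glycoprotein of embryonic mesenchyme and wounds, read 387761 in MEF, 379573 and 308874 in the iLC pair and 758.0 and 1376 in the Leydig pair. The iLC arrays lay just under the MEF array and 330-fold above the Leydig arrays. The iLC to Leydig log2 difference was 8.37 ± 0.39 (SE, adjusted p = 0.000908) and the iLC to MEF difference was -0.18 ± 0.48 (95% interval -1.35 to 0.99, adjusted p = 0.897). On the MEF and iLC arrays at least 99.8% of all probes were no brighter, and saturation flags were not used here.

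Cthrc1, a secreted collagen triple helix repeat protein of activated fibroblasts, read 13059 in MEF, 53237 and 50748 in the iLC pair and 159.0 and 116.9 in the Leydig pair. The iLC arrays were the highest and agreed within a ratio of 1.05. The iLC to Leydig difference was 8.41 ± 0.32 on the log2 scale (SE, adjusted p = 0.000908), a fold of 341. On the Leydig arrays the probe was among the dimmest 15.2% and 11.3% of probes, so the size of that fold depends on the arrays' low ends: the log2 difference was 7.81 with values floored at each array's 20th percentile and 8.71 with the arrays' low ends aligned. Between iLC and MEF Cthrc1 had the largest positive difference of the 10 genes, 1.99 ± 0.39 or 3.98-fold, which did not pass (adjusted p = 0.0917) except with values floored at each array's 20th percentile (adjusted p = 0.0443).

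The thrombospondins are trimeric glycoproteins that bind CD36 and CD47 and restrain vessel growth; thrombospondin 1 also activates latent TGF-beta, and thrombospondin 2 is known from adrenocortical cells as a protein induced by corticotropin. Thbs1 read 268282 in MEF, 83306 and 158622 in the iLC pair and 1110 and 2099 in the Leydig pair. Its iLC arrays differed by a ratio of 0.525 and lay below the MEF array and above both Leydig arrays. Thbs1 had log2 differences of 6.22 ± 0.47 (SE) between iLC and Leydig (adjusted p = 0.00153) and -1.22 ± 0.58 between iLC and MEF (adjusted p = 0.374).

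The brighter Thbs2 probe read 36514 in MEF, 66225 and 54794 in the iLC pair and 1949 and 491.8 in the Leydig pair. The other probe read 43214, then 47339 and 39532, then 1238 and 438.9. Both probes were low on the Leydig arrays; the iLC arrays were above MEF by the brighter probe and on both sides of it by the other. For iLC against MEF the log2 differences were 0.72 ± 0.78 (SE, adjusted p = 0.714) and 0.00 ± 0.63 (adjusted p = 0.999 over all probes). Between iLC and Leydig Thbs2 was 60.3-fold higher (log2 difference 5.91 ± 0.63, adjusted p = 0.00349); the log2 difference was 6.89 without Leydig replicate 1 and 4.94 without Leydig replicate 2, so its size turned on the Leydig array used. Between Leydig and MEF it was lower by -5.19 ± 0.78 (adjusted p = 0.0153), -6.17 without Leydig replicate 1, and the call was lost without Leydig replicate 2 (-4.22, adjusted p = 0.0524), which left 6 of the 10 genes called as lower there. Thbs1 had a negative and Thbs2 a positive difference between iLC and MEF; the difference between these genes was not tested.

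Sparc, a calcium-binding glycoprotein that binds collagen, read 292159 in MEF, 364712 and 300370 in the iLC pair and 314965 and 263404 in the Leydig pair. The iLC and Leydig arrays overlapped, and so did Leydig and MEF. The log2 differences were 0.18 ± 0.39 (SE) between iLC and MEF (95% interval -0.76 to 1.12), 0.20 ± 0.32 between iLC and Leydig (-0.57 to 0.97) and -0.02 ± 0.39 between Leydig and MEF (-0.96 to 0.92). On every array at least 99.8% of all probes were no brighter, and saturation flags were again not used.

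Dcn, the proteoglycan that binds collagen and TGF-beta, was ordered with MEF lowest and Leydig highest. Its brighter probe read 88499 in MEF, 218537 and 175408 in the iLC pair and 317284 and 244914 in the Leydig pair. The other probe read 45008, then 205511 and 143242, then 237087 and 160625. By both probes the MEF array was lowest; the iLC arrays lay below the Leydig arrays by the brighter probe and overlapped them by the other. Relative to MEF, Dcn differed in iLC by 1.15 ± 0.40 (log2, SE, adjusted p = 0.256) and by the other probe 1.93 ± 0.45 (adjusted p = 0.129 over all probes). Between Leydig and MEF the difference was 1.66 ± 0.40, which did not pass (adjusted p = 0.0658) but passed under 6 of 16 other settings, among them the fit of every probe, where the other probe had 2.12 (adjusted p = 0.0463 over all probes). Between iLC and Leydig it was -0.51 ± 0.33 (95% interval -1.31 to 0.29).

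Lum, a keratan sulfate proteoglycan of collagen fibrils, read 5042 in MEF, 5593 and 5139 in the iLC pair and 17683 and 2082 in the Leydig pair. MEF and iLC arrays lay close together, and the Leydig arrays lay on both sides of them, 8.49-fold apart. Its differences had standard errors near 1 log2 unit and none passed: 0.09 ± 1.13 between iLC and MEF (adjusted p = 0.98), -0.18 ± 0.92 between iLC and Leydig (adjusted p = 0.924) and 0.27 ± 1.13 between Leydig and MEF (adjusted p = 0.943). Without Leydig replicate 1 the iLC to Leydig difference was 1.36, and without Leydig replicate 2 it was -1.72. Related genes went both ways between the same Leydig arrays. Ogn, another leucine-rich proteoglycan, read 60426 and 7238, and Col3a1, a fibrillar collagen, 30186 and 3266. Smoc2, a Sparc relative, read 103658 and 24790, so these were higher on Leydig replicate 1. Prelp (14374 and 16491), Smoc1 (23426 and 36450) and Ccn5 (218512 and 258383) were higher on Leydig replicate 2. The sum of the germ cell markers was also higher on Leydig replicate 2, and their part in the spread of Lum was not tested.

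**Figure D3:**
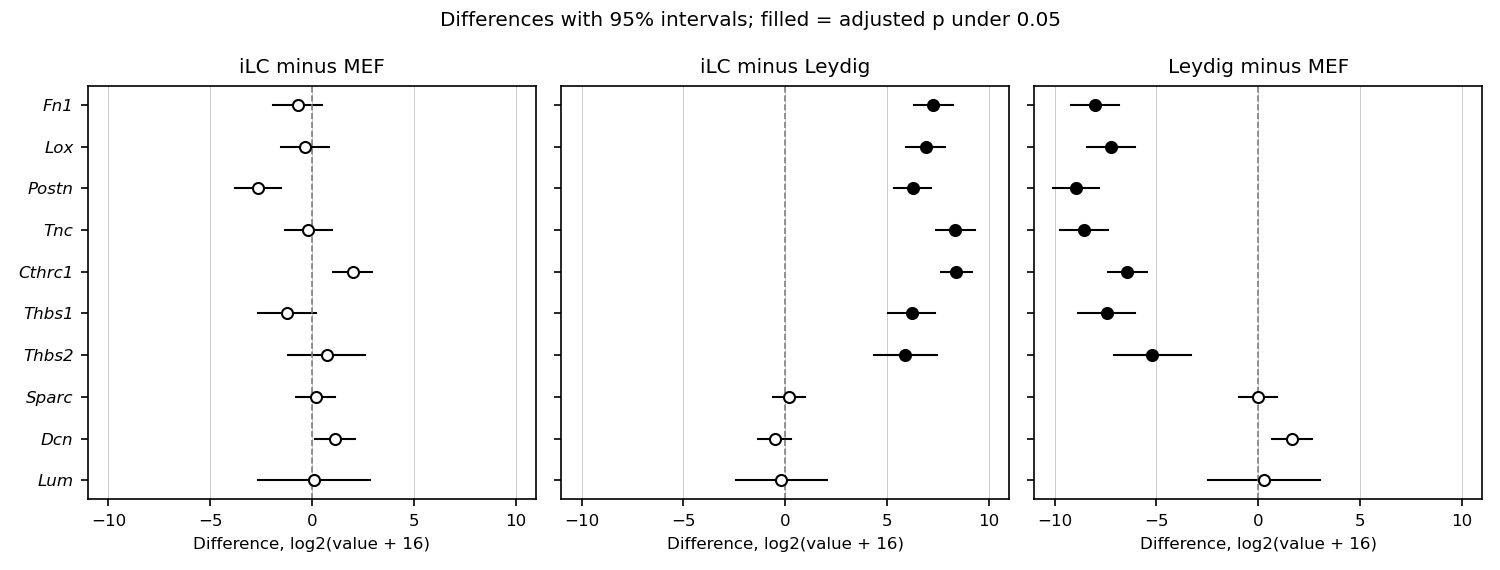
Log2 differences of the 10 genes in the 3 comparisons (points) with 95% intervals from the limma fit (lines), on the log2(value + 16) scale; filled points passed at an adjusted p under 0.05. In the iLC to Leydig panel 7 points lie between 5.91 and 8.41 and the other 3 near 0, and in the iLC to MEF panel no point is filled, with Postn at -2.66 and Cthrc1 at 1.99 at the ends.

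Between iLC and MEF, limma called 0 of the 10 genes, where 0.571% of all genes were called. Of all genes, 0.283% or 54 were called as higher and 0.288% or 55 as lower (157 and 258 with each array centred on its median). By their labels these groups differ in the factors, and they may also differ in the medium, so the part of each cannot be told apart. Postn, Cthrc1 and Dcn, 3 of the 10, had an unadjusted p under 0.05, against 15.8% of all genes. The MEF group is 1 array, and the error of its differences rests on how far the paired arrays of the other groups lay apart. The median difference of the 10 genes was -0.05 against -0.11 for all genes, with 5 of 10 above 0. The members thus spread to both sides in this comparison, from -2.66 for Postn to 1.99 for Cthrc1.

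Profiles were compared by the root mean square difference of log2 values over the 5 arrays, each gene centred on its own mean. Among the 10 genes the nearest pair was Fn1 and Lox, at 0.342, and each was also the gene nearest to the other among 17713 genes. Fbln2, which encodes fibulin 2, a partner of fibronectin in fibrils, was the next nearest to both (0.526 and 0.369), reading 218983 in MEF, 229109 and 197618 in the iLC pair and 1849 and 2046 in the Leydig pair. Next came Tbx15 for Fn1 (0.56) and Dkk3 for Lox (0.375). Postn was nearest to Tagln, a smooth muscle actin-binding protein (0.357), and to Lrrc15, a membrane protein of activated fibroblasts (0.508); both shared its order of MEF above iLC above Leydig, and Fn1 followed (0.773). Tnc was nearest to Col12a1 (0.57), Ptgs2 (0.578) and Ankrd1 (0.617). Thbs1 was nearest to Nes (0.499), Tes (0.571) and Thy1 (0.575), and Thbs2 to Fibin (0.334), Msln (0.46) and Dkk3 (0.553). Cthrc1 had more distant neighbours, Olr1 (0.695), Tbx15 (0.832) and Igfbp5 (0.838). Thbs1 and Thbs2 lay 1.3 apart. Sparc and Dcn, whose profiles are flat or shallow, had very near neighbours: Col11a2 (0.0298), Zbtb7b (0.0357) and Slc19a3 (0.0402) for Sparc, and Crot (0.0605), Spock2 (0.0912) and Ahrr (0.108) for Dcn. Lum was nearest to Pgr (0.271), the progesterone receptor gene, which read 4603 and 801.2 on the Leydig arrays, then to Sncaip (0.35) and Plg (0.412). Such likeness over 5 arrays in 3 groups is a description and carries no test.

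Genes related to the 10 were followed in 6 lists holding 73 genes, of which 69 had a named probe. Between iLC and Leydig, 14 were higher and 10 lower, where 5.74% of all genes were called as higher and 5.69% as lower. Between Leydig and MEF 7 were higher and 16 lower, where 3.39% of all genes were called as higher and 3.99% as lower. Between iLC and MEF limma called 0 of them, where 0.571% of all genes were called. Of the 69, 16 had an unadjusted p under 0.05 there, against 15.8% of all genes. Leaving out any 1 of the 4 iLC and Leydig arrays, which takes 1 of the 2 residual degrees of freedom, gave 9 (without Leydig replicate 2) to 16 (without Leydig replicate 1) calls in place of 24 between iLC and Leydig, 8 and 13 of them among the 24, and 10 and 11 without iLC replicate 1 or 2. Between Leydig and MEF 23 calls became 1 without Leydig replicate 2, 9 without Leydig replicate 1 and 20 without either iLC array. Sparcl1, Ccn3, Prelp, Fbln2 and Ltbp2 kept their iLC to Leydig calls without each of these arrays, and of the Leydig to MEF calls only that of Fbln2 was kept without each.

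Between iLC and Leydig the lysyl oxidase paralogs had smaller log2 differences than Lox itself, though this was not tested. Of 4, Loxl1 (log2 difference 1.57), Loxl2 (2.51) and Loxl4 (1.81) were higher in iLC than in Leydig arrays, and Loxl3 did not pass (0.64). Loxl2, a cross-linker of basement membrane collagen, read 189214 in MEF, 455158 and 519345 in the iLC pair and 118122 and 61956 in the Leydig pair. The iLC arrays were highest, and all 3 groups lay apart. All 3 calls were lost without iLC replicate 1, iLC replicate 2 or Leydig replicate 2, and those of Loxl1 and Loxl4 also without Leydig replicate 1.

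The other matricellular genes went both ways. Of 19 measured between iLC and Leydig, 4 were higher in iLC and 5 lower (median -0.10). Sparcl1, a relative of Sparc, read 4396 in MEF, 2636 and 2945 in the iLC pair and 83395 and 76498 in the Leydig pair, which gives an iLC to Leydig difference of -4.83 ± 0.30 (log2, SE, adjusted p = 0.0011). It was thus high on both Leydig arrays and low on the other 3. The CCN family, cysteine-rich secreted signalling proteins, split: Ccn3 (4.01), Ccn2 (2.49) and Ccn1 (2.17) were higher in iLC than in Leydig arrays, whereas Ccn5 was lower (-3.18). Ccn5 read 10835 in MEF, 37064 and 18489 in the iLC pair and 218512 and 258383 in the Leydig pair. Spock3 (1.74) was also higher, and Smoc1 (-3.22), Smoc2 (-2.89) and Tnxb (-2.30) were lower in iLC. Without Leydig replicate 2 the calls of Ccn5, Smoc1 and Tnxb were lost (adjusted p = 0.0796, 0.0733 and 0.0542), and that of Ccn5 also without Leydig replicate 1 (adjusted p = 0.0533). Those of Ccn1 and Spock3 were lost on leaving out any of the 4 arrays, and those of Ccn2 and Smoc2 on leaving out any but Leydig replicate 2, where Smoc2 was at -3.92.

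Among 13 other small leucine-rich proteoglycans none was higher and 3 lower in iLC than in Leydig (median -0.75). Prelp, which links collagen to basement membrane, read 2220 in MEF, 929.9 and 1149 in the iLC pair and 14374 and 16491 in the Leydig pair, with an iLC to Leydig difference of -3.88 (log2, adjusted p = 0.00176). Omd, osteomodulin, had a difference of -4.19 (adjusted p = 0.00997), lost without iLC replicate 1 (0.0656) and ranging from -5.12 without Leydig replicate 2 to -3.26 without Leydig replicate 1, and Nyx one of -2.15 (adjusted p = 0.0432), lost without any array but iLC replicate 2 (-2.81 there). Ogn did not pass (-2.85, adjusted p = 0.108) but was called as lower without Leydig replicate 2 (-4.38, adjusted p = 0.0306). Bgn, biglycan, a close relative of decorin, differed by 1.43 without passing (adjusted p = 0.0679).

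Of 14 measured genes of elastic fibres and microfibrils, 4 were higher in iLC than in Leydig arrays and 1 lower (median 1.24). Fbln2 differed by 6.76 ± 0.31 (log2, SE, adjusted p = 0.000908), within the range of the 7 called members. Ltbp2, named for the latent TGF-beta binding protein family, differed by 3.61 and Fbln5, which organises elastic fibres, by 3.31. Mfap5 was also higher (2.82) and the elastin gene Eln lower (-1.75). The call of Fbln5 was lost without Leydig replicate 2 (adjusted p = 0.0552), that of Mfap5 without any array but Leydig replicate 1 (3.48 there), and that of Eln without any of the 4. Mfap2 (1.54) was called without Leydig replicate 1 alone (2.69, adjusted p = 0.0334).

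**Figure D4:**
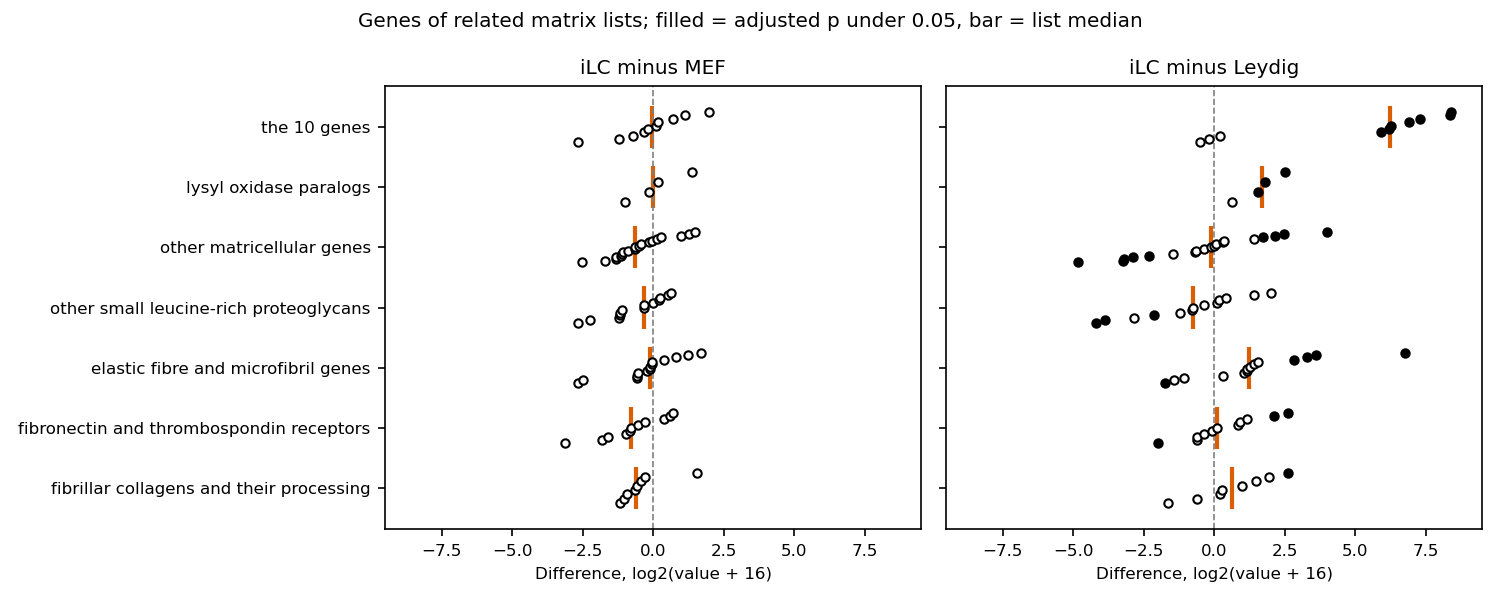
Log2 differences (log2(value + 16) scale) of each measured gene in 7 groups of matrix genes, between iLC and MEF and between iLC and Leydig; filled points passed at an adjusted p under 0.05 and the bar is the median of a group. No point is filled between iLC and MEF, and between iLC and Leydig the 10 genes have a median of 6.24, the other groups medians from -0.75 to 1.69.

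Of 11 receptors of fibronectin and thrombospondins, Itga5 (2.11), the alpha subunit of the main fibronectin receptor, and Itga8 (2.62) were higher and Cd47, a thrombospondin receptor, lower (-1.97) in iLC than in Leydig arrays. Cd47 read 31248 in MEF, 48849 and 52850 in the iLC pair and 209969 and 190069 in the Leydig pair. The calls of Itga5 and Cd47 were lost without any of the 4 arrays and that of Itga8 without iLC replicate 2 or Leydig replicate 2. Of 8 measured fibrillar collagen genes and their processing enzymes, Bmp1, the proteinase that trims procollagen and activates lysyl oxidase, was the only call on all 5 arrays (2.61, adjusted p = 0.0393), lost without any array but Leydig replicate 1 (3.49 there). Col1a1 read 541.7 in MEF, 332.1 and 484.0 in the iLC pair and 341.6 and 322.8 in the Leydig pair. These lie below each array's median, so its lack of a call says little. Col1a2 read 152861 in MEF, 120394 and 81114 in the iLC pair and 77886 and 16130 in the Leydig pair and did not pass (1.48, adjusted p = 0.262). Without Leydig replicate 1, Col1a2 (2.61, adjusted p = 0.05, just under it before rounding) and Col5a2 (2.59, adjusted p = 0.037) were called as higher in iLC.

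Between iLC and MEF, where no related gene passed, 19 of 69 had differences above 0. The share of all genes above 0 was not counted, so this count stands without its background. The median of the 69 was -0.49, against -0.11 for all genes, and the differences of largest size were negative. Itga4, the alpha subunit of another fibronectin-binding integrin, read 3958 in MEF, 284.8 and 674.9 in the iLC pair and 360.0 and 603.6 in the Leydig pair, and differed by -3.12 ± 0.61 between iLC and MEF (log2, SE, adjusted p = 0.091). MEF thus stood above all 4 other arrays. Itga8 had a difference of -1.80. Mfap4 (-2.66) and Fbn2 (-2.48), both of microfibrils, Aspn (-2.67) and Ogn (-2.24), both leucine-rich proteoglycans, and Thbs4 (-2.51) and Smoc2 (-1.69) were also below MEF in the mean. Efemp1, a fibulin (1.70), Bmp1 (1.55), Tgfbi, a fasciclin-domain relative of periostin (1.48), and Loxl2 (1.36) were above it, while Loxl1 (-0.99) and Col5a2 (-1.19) were below. Adjusted p-values of these genes ran from 0.087 for Thbs4 to 0.399 for Ogn.

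Between Leydig cells and MEF, Fbln2 (-6.80), Ltbp2 (-3.73), Fbln5 (-3.90) and Fbn2 (-3.89) were lower on the Leydig arrays, as were Ccn3 (-4.92), Ccn2 (-3.58), Itga8 (-4.42), Itga5 (-3.08), Itga4 (-3.04), Aspn (-4.69), Loxl1 (-2.56) and Col5a2 (-3.14). Ccn5 (4.45), Sparcl1 (4.18), Prelp (2.79), Efemp1 (2.77) and Cd47 (2.68) were higher there. Ccn3 read 4452 in MEF, 2997 and 1868 in the iLC pair and 125.1 and 137.9 in the Leydig pair, so iLC lay nearer to MEF. Ltbp2 did the same, with 74662 in MEF, 71946 and 65928 in the iLC pair and 6101 and 5196 in the Leydig pair. These calls share the Leydig arrays with those above; without Leydig replicate 2 only Fbln2 of the 23 kept its call.

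Markers of other cell types moved with these groups as follows. Peritubular myoid and smooth muscle markers, all 6 measured, summed to 595588 in MEF, 538196 and 479772 in the iLC pair and 34193 and 49711 in the Leydig pair, and 5 of 6 were higher in iLC than in Leydig arrays, as were the 7 matrix genes; 1 of the 5, Lmod1, lost its call on leaving out any of the 4 arrays. Fibroblast markers, all 9 measured and 3 of them collagens listed above, summed to 826327 in MEF, 589248 and 514582 in the iLC pair and 492249 and 333230 in the Leydig pair. On the Leydig arrays Vim made up 170193 and 180020 of these sums and Pdgfra 180686 and 92654, against 218063 and 15980 in MEF. Thy1 read 1211 and 5361 on the Leydig arrays, against 296874 in MEF. Within that list Thy1 (5.32, or 4.26 without Leydig replicate 1 and 6.39 without Leydig replicate 2) and Prrx1 (2.73) were higher and Pdgfra (-2.41) and Twist1 (-1.40) lower in iLC than in Leydig arrays; the last pair of calls was lost without any of the 4 arrays. Macrophage markers, 7 of 8 measured, summed to 63718 in MEF, 24777 and 49591 in the iLC pair and 17765 and 21093 in the Leydig pair, and endothelial markers, all 6, to 7070, then 6778 and 7708, then 14910 and 10802. Of the endothelial sums Cdh5 made up 10224 and 6400 on the Leydig arrays, against 770.6 in MEF, while Emcn read 395.9 and 402.7 there, against 2066 in MEF. Sertoli markers, all 7, summed to 29626, then 52025 and 89247, then 343201 and 378109, of which Clu, clusterin, made up 332720 and 369002 on the Leydig arrays. Cldn11 read 4818 and 2505 on the Leydig arrays, against 513.1 in MEF, while Rhox5 read 255.4 and 245.5 there, against 548.8 in MEF. No marker of these lists was at 0 on any array. Their part in the differences of the 10 genes was not tested.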

How the data were processed

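The authors deposited probe intensities on a linear scale in a value table, 1 column for each of 5 arrays; their background correction, normalization, software and genome build are not named in the labels or the file, and detection calls or flags were not used here. Per the labels' protocols, total RNA was amplified and labelled with Cy5. Samples were grouped by their titles, and 0 columns belonged to no sample. Probes were named through the platform annotation: of 26423, 21876 had 1 gene symbol, 0 several and 4547 none; 21825 named probes matched a RefSeq gene table by Entrez number (GRCm38.p6, names and promoters only) and 0 symbols differed there. For 2424 genes with several probes the probe of highest mean intensity stood for the gene.

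Values below 0 (435, 23 and 46 values on 3 arrays) were set to 0 and log2(value + 16) was taken. limma 3.58.1 in R 4.3.3 (lmFit, eBayes) was fitted with a mean per group over all 5 arrays, giving 2 residual and 4.19 prior degrees of freedom. Tests were two-sided, adjusted by Benjamini-Hochberg over the 19084 genes of each comparison (or over all named probes where said); the spread of the single MEF array was taken to equal that of the pairs. The root mean square SD over genes was 0.459 between iLC arrays and 0.549 between Leydig arrays. The number of arrays limits the precision. An exact permutation test over such groups cannot reach the threshold and was not used. The fit was also run on simulated data that gave the MEF array the spread of the pairs. That run could not check the assumption of equal spread.

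The members and lists were chosen with earlier results of these data known, so their counts are described beside those of all genes and no list was tested as a set. All members were named, plus called genes of related lists (up to 4 with the largest differences; others, markers and the delivered factors where a result needs them, chosen after their values were seen) and, for each member, genes of nearest profile (3 sought, leaving out predicted genes, clones and pseudogenes). Alternatives covered the added value, normalization, low ends, a floor, a filter on dim genes, probe choice, the arrays fitted, the prior, leaving out arrays and a replicate block; leaving out arrays for the related lists was added after seeing the data.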

Additional observations from a re-analysis of the deposited data

How the results depend on the processing

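Over 17 settings between iLC and Leydig arrays the count of 7 called members did not change, and over 16 between Leydig cells and MEF it was 6 to 8, with Dcn added under 6 settings and Thbs2 lost without Leydig replicate 2. Between iLC and MEF the count was 1 with an added value of 64, with centred arrays and with quantile normalization (Postn each time), 2 with values floored at the 20th percentile (Postn and Cthrc1), and 0 under the others, including all 4 that leave out an array. Over all genes, 109 calls between iLC and MEF became 7 with an added value of 4, 287 with 64, 415 with centred arrays, 367 with quantile normalization, 6 with aligned low ends, 328 with the floor, 231 with the filter on dim genes, 249 with an intensity trend and 0 with the 2 groups alone (2881 at an unadjusted p under 0.05); without any 1 of the iLC or Leydig arrays limma called 0 (2137 to 2881 at an unadjusted p under 0.05). Quantile normalization moved the median of all genes between iLC and MEF from -0.11 to 0.05. Leaving out an array gave 704 to 1267 calls between iLC and Leydig, against 2181, and 149 to 963 between Leydig cells and MEF, against 1408.

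The direction of Lox between iLC and MEF was reversed with the mean of its probes (0.39) and by its other probe (1.13). Lum was reversed without Leydig replicate 1: leaving out arrays gave -1.72 to 1.36 between iLC and Leydig and -1.27 to 1.81 between Leydig cells and MEF. Sparc between Leydig cells and MEF moved from -0.02 to 0.069 with quantile normalization and ranged from -0.15 to 0.11 on leaving out a Leydig array. None of these values was called in any setting, and beyond the probe or array named the cause was not tested. With the replicate number as a replicate block, over the iLC and Leydig arrays, 7 members and 3443 genes were called, but that fit rests on 1 residual degree of freedom; deviations of same-numbered arrays correlated at 0.0552 over genes, so the numbers were not taken as pairs.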
